A study of Mus musculus with 24 samples.

Results

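The soleus of MCK-PPARb mice was compared with the soleus of their non-transgenic littermates, NTGb, over every microRNA assay of a pair of TaqMan cards. The soleus is a hindlimb muscle rich in slow, oxidative fibres. MCK-PPARb mice overexpress PPARb, a nuclear receptor also called PPARδ, under the muscle creatine kinase (MCK) promoter, which is active in differentiated striated muscle. The members were the 3 MCK-PPARb and the 3 NTGb animals, 6 of the 12 in the series, each run on 2 cards (12 of 24 deposited samples). The other 6 animals were 3 MCK-PPARa mice, which overexpress PPARa in muscle, and 3 NTGa littermates. All were male and 12 weeks old, and the samples of all 4 groups were soleus. Neither the strain nor the number of founder lines was given in the sources used here, and no treatment is named. The labels call the replicates biological; p-values measure the spread between these animals only. The cards hold small RNA assays, so the transgene itself was not measured.

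MicroRNAs are short RNAs, cut from hairpin precursors, that guide silencing complexes to messenger RNAs. Bases 2 to 8 of the mature strand, the seed, do most of the target pairing, so microRNAs that share a seed can act on overlapping targets. In striated muscle a few microRNAs, such as miR-1, miR-133a and miR-206, make up much of the pool, and miR-208a, miR-208b and miR-499 lie in introns of myosin heavy chain genes. PPARb is a fatty-acid-activated receptor, known in muscle for driving genes of fat oxidation and of the oxidative fibre programme.

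No microRNA passed the test between MCK-PPARb and NTGb. Of 268 assays tested, 0 were called (0%) by limma at an adjusted p under 0.05, and 23 (8.58%) had an unadjusted p under 0.05, 14 of them higher (5.22%) and 9 lower (3.36%) in MCK-PPARb. The lowest p belonged to miR-135a, followed among the higher ones by miR-28, miR-185 and miR-24-2*, and among the lower ones by miR-184. The microRNAs that dominate muscle differed little: miR-1, miR-133a, miR-133b and miR-206 had log2 differences between -0.21 and 0.25, and miR-499 had -0.08. In whole muscle, fewer cells of a type and less RNA per cell cannot be told apart.

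The sequences below are the mature strands behind the groups described here, from RefSeq (GRCm38.p6), written 5′ to 3′ with the seed in capitals. They are shown so that the shared seeds can be read: miR-28 with miR-708, miR-98 with let-7d and the other let-7 members, miR-27a with miR-27b, miR-192 with miR-215, the 3 miR-29 members, and miR-208 with miR-208b. Of 46 names looked up, 42 had a sequence there; miR-135b, miR-185, miR-23b and miR-486 are named only. The star marks the minor strand of a hairpin in the cards' older nomenclature.
miR-135a: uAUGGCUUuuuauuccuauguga
miR-28: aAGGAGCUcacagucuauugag
miR-708: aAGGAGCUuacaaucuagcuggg
miR-24-2*: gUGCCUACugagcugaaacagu
miR-24: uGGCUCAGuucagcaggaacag
miR-27a: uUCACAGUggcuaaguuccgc
miR-27b: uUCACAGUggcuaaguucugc
miR-98: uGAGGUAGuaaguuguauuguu
let-7d: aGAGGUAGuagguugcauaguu
let-7a: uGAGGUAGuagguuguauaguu
miR-192: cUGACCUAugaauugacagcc
miR-215: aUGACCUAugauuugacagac
miR-194: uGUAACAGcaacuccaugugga
miR-184: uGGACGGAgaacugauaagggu
miR-29a: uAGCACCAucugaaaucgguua
miR-29b: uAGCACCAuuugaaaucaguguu
miR-29c: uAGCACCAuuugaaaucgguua
miR-208: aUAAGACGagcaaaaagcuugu
miR-208b: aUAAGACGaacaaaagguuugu
miR-499: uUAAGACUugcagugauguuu

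Each value started as a cycle threshold (Ct), the PCR cycle at which a well's signal passes a set level; the more template a well holds, the lower its Ct. To obtain a log2 level, the Ct of a microRNA was subtracted from the card's reference, which is the average Ct over those microRNAs that every one of the 12 animals had detected; a difference of 1 is a 2-fold change if template doubles each cycle. A microRNA counted as detected at a Ct under 35, and undetected values, as well as measured levels that fell lower, were set to a floor of -6.56 on card A and -5.66 on card B. The 3 NTGb animals had 261, 296 and 248 detected microRNAs of 584, and the 3 MCK-PPARb animals 283, 278 and 270. The means were 268 ± 24.8 (SD, n = 3) and 277 ± 6.56 (SD, n = 3), with an exact permutation p of 0.6 (two-sided; 3 against 3 cannot go below 0.1). The endogenous small RNA controls had a mean Ct of 24.8 in NTGb and 24.7 in MCK-PPARb (exact permutation p = 0.7). NTGb replicate 2 stood apart: its median absolute log2 difference to the other NTGb animals was 0.51 and 0.61, against 0.31 between those 2 and 0.30 to 0.42 within MCK-PPARb. Its mean Ct over the commonly detected microRNAs of card A was 27.56, against 28.02 to 28.44 in the other 5 animals. Its Ct for miR-133a, miR-206 and miR-499 was close to theirs, so its scaled levels of these muscle microRNAs were the lowest of the 6.

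The labelled tissue fitted its markers. The 20 microRNAs with the lowest mean Ct were the same 20 in both groups, led by miR-133a (Ct 17.4 in NTGb, 17.5 in MCK-PPARb), miR-206 (18.5 and 18.1) and miR-378 (19.0 and 18.6). Ct also depends on the assay, so this is an order of Ct and not of copies. Of 584 assays, 228 were detected in every animal of both groups and 245 in none of the 6. No assay was detected in all 3 animals of a group and none of the other. The widest gaps were 2 animals: miR-369-5p, miR-500 and miR-653 in 2 MCK-PPARb animals and no NTGb animal, miR-675-3p, miR-31*, miR-9*, rno-miR-148b-5p and, by averaged wells described further on, miR-133a* in 3 against 1, and miR-18a* and miR-764-5p in no MCK-PPARb animal and 2 NTGb animals. Such a gap can rest on Ct values near the limit of 35. For miR-9* the mean Ct was 34.6 in NTGb and 34.1 in MCK-PPARb, with a log2 difference of 0.15 (SE 0.57). The log2 difference of miR-31* was 0.46 (SE 0.73), and that of rno-miR-148b-5p was 0.24 (SE 0.45).

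Differences were small for most microRNAs. Over the 268 tested, the median log2 difference was 0.02 with quartiles of -0.31 and 0.38; 137 were positive (51.1%) and 131 negative (48.9%). The size was under 0.5 for 195 and over 1 for 21, of which 12 were higher and 9 lower. Of these 21, miR-699 at 1.95 (SE 1.09), miR-202-3p at 1.08 (SE 0.53), miR-696 at 1.03 (SE 0.87) and rno-miR-196c at -1.41 (SE 0.78) belong to no group described here and were picked after their values were seen. The animals of the 2 groups did not overlap for 41 microRNAs (15.3%), 29 higher (10.8%) and 12 lower (4.48%). For comparison, the 2 sets of non-transgenic littermates, NTGb against NTGa, gave 5 calls (1.87%) and 42 unadjusted p under 0.05 (15.7%) in the same fit.

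What the fit could resolve depended on abundance. The mean Ct here was taken over all 12 animals, and the standard errors share the spread of all 4 groups. Among the 37 microRNAs with a mean Ct under 25 the median standard error was 0.24, and for 31 of them the 95% interval lay between -1 and 1; none had an unadjusted p under 0.05. Among the 77 with a mean Ct of 32 or more the median standard error was 0.54, and 10 had such an interval. Over all tested, 99 (36.9%) had a 95% interval between -1 and 1, so for the others a 2-fold difference was not excluded. Of the 23 unadjusted p under 0.05, 21 lay at a mean Ct of 28 or more. Wells of an assay present more than once on a card differed by a median of 0.61 cycles at a Ct of 30 to 35 and by 0.05 under a Ct of 25.

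**Figure D1:**
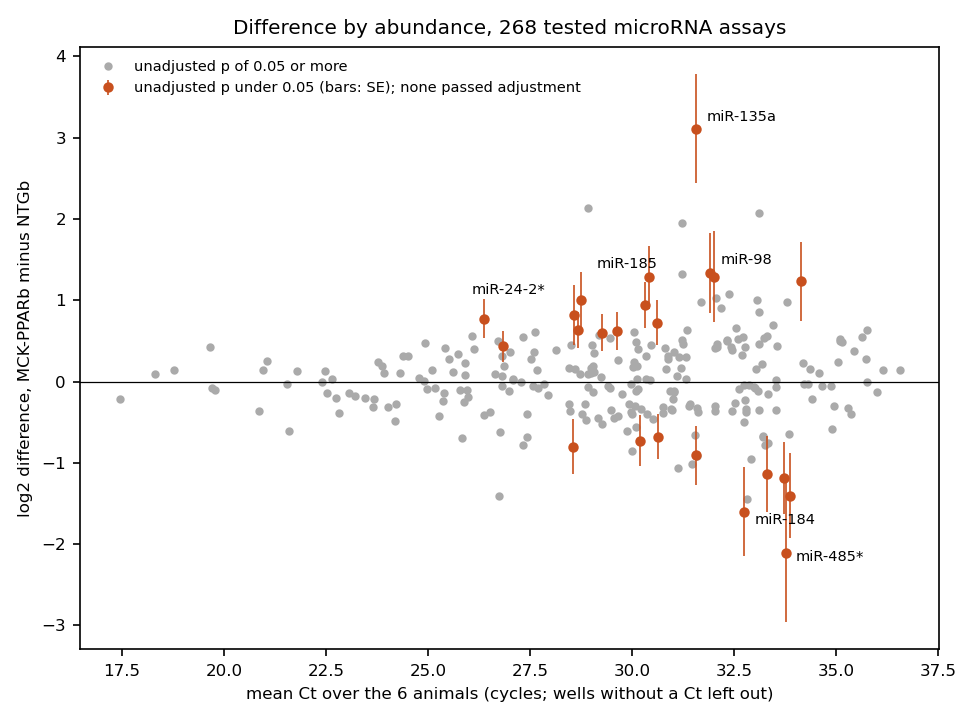
The log2 difference (MCK-PPARb minus NTGb, vertical axis) of each of the 268 tested assays is plotted against its mean Ct over the 6 animals (horizontal axis, in cycles; abundant microRNAs at the left). Orange points with standard error bars are the 23 with an unadjusted p under 0.05, and none of them lies at a mean Ct under 25; miR-135a is the highest at 3.11 and miR-485* the lowest at -2.10.

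The largest positive difference was that of miR-135a, which is encoded at separate sites on chromosomes 9 and 10. Its Ct was 34.6 and 31.5 in NTGb replicates 1 and 2, with no Ct in replicate 3, and 31.4, 30.9 and 29.3 in MCK-PPARb. All 3 MCK-PPARb levels were above all 3 NTGb levels, with NTGb replicate 2 nearest to them. The log2 difference was 3.11 (SE 0.67, 95% interval 1.63 to 4.59), an 8.62-fold difference, with an unadjusted limma p of 7.87e-04 and an adjusted p of 0.211; it included 1 NTGb value at the floor. Without NTGb replicate 2 it was 3.93 with an adjusted p of 0.0102, past the threshold. The NTGa and MCK-PPARa means of miR-135a were -1.85 and -1.52 on the log2 level scale, both above the MCK-PPARb mean of -2.48, while NTGb was at -5.58. Against NTGa in place of NTGb, the difference of miR-135a was -0.62. The miR-135b assay spread widely: the Ct was 31.3, 27.9 and 30.8 in NTGb and 29.7, 27.8 and 25.9 in MCK-PPARb. Those groups overlapped, with a log2 difference of 2.13 (SE 1.01, limma adjusted p = 0.532). The opposite strand miR-135a* had a log2 difference of 0.18 (SE 0.37).

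Next by p came miR-28, which lies within the gene Lpp (chr16:24827868-24827889, plus strand). Its Ct was 30.9, 29.9 and 31.6 in NTGb and 30.0, 29.5 and 29.9 in MCK-PPARb. On the scaled log2 level all 3 MCK-PPARb animals, at -1.93, -1.45 and -1.80, were above all 3 NTGb animals, at -2.51, -2.33 and -3.15. With a log2 difference of 0.94 (SE 0.28), its limma adjusted p of 0.490 did not pass. Its opposite strand miR-28* had 0.23 (SE 0.59), and miR-708, with the same seed, had 0.31 (SE 0.39).

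The third was miR-185, a microRNA with reported targets in cholesterol and lipid handling. Its log2 levels were -2.95, -3.23 and -2.68 in NTGb and -0.75, -2.01 and -2.26 in MCK-PPARb. The groups did not overlap, and MCK-PPARb replicate 1 was the highest of the 6. In log2 the difference was 1.28 (SE 0.39, limma adjusted p = 0.490). It was 1.34 in the other line, and the difference between the lines' effects was -0.06 (limma adjusted p = 0.982). The pair miR-192 and miR-194, best known from liver, gut and kidney, lay in the same direction in both lines. They neighbour each other on chromosome 19, and a further copy of miR-194 lies beside miR-215 on chromosome 1, so the miR-194 assay reads both sites. The log2 difference of miR-192 was 0.60 (SE 0.22) in the MCK-PPARb line and 1.01 in the MCK-PPARa line. For miR-194 the values were 0.62 (SE 0.23) and 1.40. The MCK-PPARb animals lay above their NTGb littermates for both microRNAs, and neither passed limma's adjusted threshold (0.490 for each). With NTGa as the control, the difference of miR-192 was -0.0782.

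The miR-23-27-24 clusters were mostly higher. The mature strands of miR-23a, miR-27a and miR-24-2 lie within chr8:84208563-84208896 (plus strand), and miR-23b, miR-27b and miR-24-1 on chromosome 13 inside Aopep; miR-27 is known as a brake on adipocyte differentiation. Of 9 assays 8 were tested, 7 positive and 1 negative (against 51.1% positive over all tested), with a median log2 difference of 0.42 against 0.02 over all. None was called, and 4 had groups that did not overlap, all higher (10.8% over all tested). The list was chosen with earlier results of these data known, and its strands share hairpins and clusters. Its counts therefore describe the list and are no test of it. For miR-24-2* the Ct was 26.8, 26.6 and 27.2 in NTGb and 25.6, 25.8 and 26.2 in MCK-PPARb. Every MCK-PPARb well came up before every NTGb well. This gave a log2 difference of 0.77 (SE 0.24, limma adjusted p = 0.490), and its partner strand miR-24, one of the most abundant microRNAs of this muscle, had 0.43 (SE 0.25). For miR-23b, miR-27a and miR-27b the log2 differences were 0.63 (SE 0.22), 0.41 (SE 0.19) and 0.40 (SE 0.22). Without NTGb replicate 2, miR-24 had 0.17 and miR-27b 0.22. The exception was miR-24-1* at -0.15 (SE 0.49), and miR-23a, whose Ct was under 35 in 1 NTGb and 2 MCK-PPARb animals, was not tested. Without NTGb replicate 2 the count was again 7 positive and 1 negative and the median was 0.29.

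The let-7 family, the most widely expressed seed family of adult tissue and known for restraining growth programmes, had mostly positive differences. All 9 members were tested. Of these 8 were positive (against 51.1% over all tested) and let-7c was at -0.0030. The median was 0.23 against 0.02 over all, and none was called. This list too was chosen with earlier results of these data known, so its counts only describe it. With U6, a small nuclear RNA, as the reference all 9 were positive, while the median over all tested assays rose from 0.02 to 0.33. The outlying member was miR-98, which lies beside let-7f-2 in Huwe1 on chromosome X. Its log2 levels were -4.53, -4.16 and -4.73 in NTGb and -3.09, -3.29 and -3.02 in MCK-PPARb. The groups were well apart, and the MCK-PPARb animals were close to each other. Their log2 difference was 1.34 (SE 0.49, limma adjusted p = 0.490), but its neighbour let-7f had 0.19 (SE 0.25). For let-7d the levels were 1.23, 0.91 and 1.04 in NTGb and 1.66, 1.41 and 1.41 in MCK-PPARb, which did not overlap, with a log2 difference of 0.44 (SE 0.19, limma adjusted p = 0.532). The other 6, let-7a, let-7b, let-7e, let-7g, let-7i and let-7c, lay between -0.0030 and 0.45. Without NTGb replicate 2 the family had 7 positive and 2 negative members and a median of 0.19.

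Of the remaining positive ones with low p, miR-547, encoded on the X chromosome, had a Ct of 29.3, 29.3 and 29.2 in NTGb and 28.3, 27.9 and 28.5 in MCK-PPARb. All 3 MCK-PPARb wells came up earlier, and the groups did not overlap with or without scaling. In log2 the difference was 1.00 (SE 0.34, limma adjusted p = 0.490), whereas it was -0.70 in the MCK-PPARa line. The log2 differences of miR-340-3p, inside Rnf130, and of miR-539, of the Dlk1-Dio3 cluster, were 0.73 (SE 0.28) and 0.82 (SE 0.37). For miR-190, inside the talin gene Tln2, the NTGb levels ran from -5.39 to -3.49 and the MCK-PPARb levels from -3.39 to -3.08, so the groups just failed to touch, with a difference of 1.29 (SE 0.56). The minor strand miR-133a* was read in a pair of wells per animal, which disagreed in some. Their Ct were 34.5 and 33.4, 33.6 and 37.3, and 33.3 and none in NTGb, and 32.3 and 31.8, 33.0 and 33.3, and 32.2 and 35.1 in MCK-PPARb. Each NTGb animal thus had a well under 35, and by the averaged wells, an empty one taken as Ct 40, 1 NTGb animal and all 3 MCK-PPARb animals counted as detected. The log2 difference of miR-133a* was 1.23 (SE 0.48) with 2 NTGb values at the floor, and 0.64 with the empty well left out. Its partner miR-133a had -0.21 (SE 0.29).

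**Figure D2:**
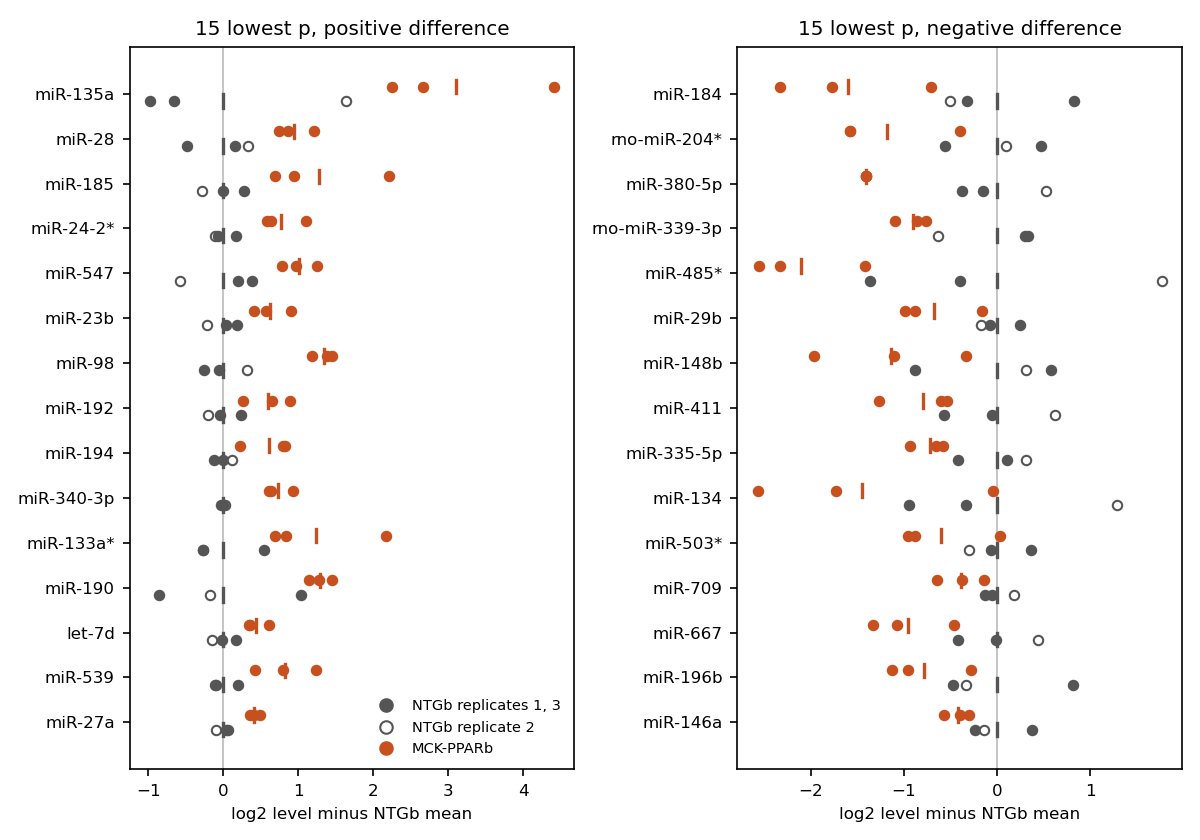
Each point is an animal's log2 level minus the NTGb mean (horizontal axis, log2 units), for the 15 microRNAs with the lowest p among positive (left) and negative (right) differences; grey is NTGb, with replicate 2 as an open circle, orange is MCK-PPARb, and short bars are group means. For miR-135a, miR-485*, miR-411 and miR-134 the open circle is the highest NTGb animal, and the 3 MCK-PPARb points of miR-380-5p lie at the floor.

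Among the lower microRNAs the lowest p was that of miR-184, a microRNA known from eye and skin epithelium. Its Ct was 32.5, 31.9 and 31.4 in NTGb and 33.7, 34.2 and 32.7 in MCK-PPARb. Every MCK-PPARb animal lay below every NTGb animal on the level scale. This made a log2 difference of -1.60 (SE 0.55, limma adjusted p = 0.490). The NTGa and MCK-PPARa means, -6.19 and -6.13, were below both, so that the difference of miR-184 was 0.76 when NTGa served as the control. For rno-miR-339-3p, an assay with a rat name, the Ct was 31.09, 31.19 and 31.10 in NTGb and 31.97, 32.10 and 31.89 in MCK-PPARb. The groups lay apart, each with little spread in Ct. Its log2 difference was -0.91 (SE 0.36, limma adjusted p = 0.516), but 0.99 with NTGa as the control and 0.0411 with all 6 controls. The mouse assay miR-339-3p had -0.52 (SE 0.34), and the other arm miR-339-5p had 0.66 (SE 0.70). With NTGa as the control, 10 of the 30 microRNAs in the plot of levels by animal had the opposite sign.

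The miR-29 family, known for repressing collagens and other matrix genes, was negative in all 3 members, with a median of -0.22. Its lowest member was miR-29b, with log2 levels of -2.25, -2.35 and -1.93 in NTGb and -3.17, -2.34 and -3.06 in MCK-PPARb. MCK-PPARb replicate 2 lay among the NTGb animals. Its log2 difference was -0.68 (SE 0.28, limma adjusted p = 0.516), and the abundant miR-29a had -0.03 (SE 0.23) and miR-29c -0.22 (SE 0.22). With U6 as the reference, 2 of the 3 were positive and their median was 0.10, while the median over all tested assays rose from 0.02 to 0.33. The CAGUGCA seed was split: miR-148b, within Copz1, had -1.14 (SE 0.47), while miR-152, within Copz2, and miR-148a had 0.36 (SE 0.19) and 0.16 (SE 0.34). For miR-148b the levels were -4.02, -4.28 and -5.48 in NTGb and -4.92, -6.56 and -5.70 in MCK-PPARb, so the groups overlapped and 1 MCK-PPARb value stood at the floor. The remaining ones were rno-miR-204* at -1.19 (SE 0.44), with groups that overlapped and 2 MCK-PPARb values at the floor, and miR-335-5p, inside the imprinted gene Mest, at -0.73 (SE 0.31). Its other arm miR-335-3p had -1.06 (SE 0.69). The last negative ones by p, miR-503*, miR-709, miR-667 and miR-196b, lay between -0.95 and -0.39, with limma adjusted p of 0.559 each.

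The Dlk1-Dio3 cluster, an imprinted locus on chromosome 12 whose many microRNAs are abundant in embryonic and regenerating muscle, gave the widest spread. Of 44 assays on the cards 15 were detected in none of the 6 animals and 21 were tested, 3 positive and 18 negative (against 48.9% negative over all tested), with a median of -0.37. None was called. As the list was chosen with earlier results of these data known, its counts only describe it. Without NTGb replicate 2 the count was 8 positive and 13 negative and the median -0.23. With U6 as the reference it was 9 positive and 12 negative, while the median over all tested assays rose from 0.02 to 0.33. For miR-485* the Ct was 32.6, 30.0 and 33.8 in NTGb and 33.4, 34.0 and 38.8 in MCK-PPARb. The Ct of 38.8 was over the limit of 35, so that value was set to the floor. The earliest well was that of NTGb replicate 2. With it the log2 difference was -2.10 (SE 0.85), and -1.22 without that animal. With NTGa as the control the difference of miR-485* was -0.11, and with all 6 controls -1.11. NTGb replicate 2 also had the highest level of miR-411 and miR-134: their log2 differences were -0.80 (SE 0.34) and -1.45 (SE 0.68) with it and -0.49 and -0.81 without it. For miR-380-5p the Ct was 33.9, 32.2 and 33.7 in NTGb, while MCK-PPARb gave no Ct, 34.7 and 34.7. Both measured MCK-PPARb values fell under the floor after scaling and were set to it, so all 3 stood there. Measured to the floor, the log2 difference of miR-380-5p was -1.41 (SE 0.52, limma adjusted p = 0.490), or 2.65-fold, and -1.14 without NTGb replicate 2. With all 3 MCK-PPARb values at the floor, the difference between these animals may be larger.

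Markers of other cells were followed beside these groups. Of the fibroblast and smooth muscle list 4 of 5 were tested, 2 positive and 2 negative, and its summed linear level ran from 32.7 to 34.2 in NTGb and from 31.98 to 37.05 in MCK-PPARb. Within it, miR-214 had a Ct of 27.9, 25.5 and 27.9 in NTGb and 27.8, 27.9 and 27.6 in MCK-PPARb, and miR-199a-3p 26.0, 24.1 and 26.0 against 25.5, 25.3 and 25.6. Both came up earliest in NTGb replicate 2, the animal with the high Dlk1-Dio3 levels; their part in that result was not tested. The leukocyte list had 1 positive and 4 negative of 5 tested, with summed levels of 28.5 to 46.6 in NTGb and 27.0 to 33.8 in MCK-PPARb, and its lowest-p member miR-146a, a brake on inflammatory signalling, had -0.42 (SE 0.22). The endothelial strands miR-126-3p and miR-126-5p had -0.10 (SE 0.29) and -0.37 (SE 0.49), and miR-451, which marks red cells, had 0.53 (SE 0.31). Of the epithelial list 3 of 10 were tested, and miR-200c had 2.07 (SE 1.15). Its earliest well was in MCK-PPARb replicate 1 (Ct 29.8 against 32.9 and 33.2 in the other 2 and 33.8 to 34.7 in NTGb). Without that animal the difference of miR-200c was 0.98. The median of the epithelial list was 0.09, with 2 positive and 1 negative. The neural list had 2 positive and 1 negative of 3 tested and a median of 0.03, and the liver marker miR-122 was detected in 1 MCK-PPARb animal and no NTGb animal and was not tested.

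**Figure D3:**
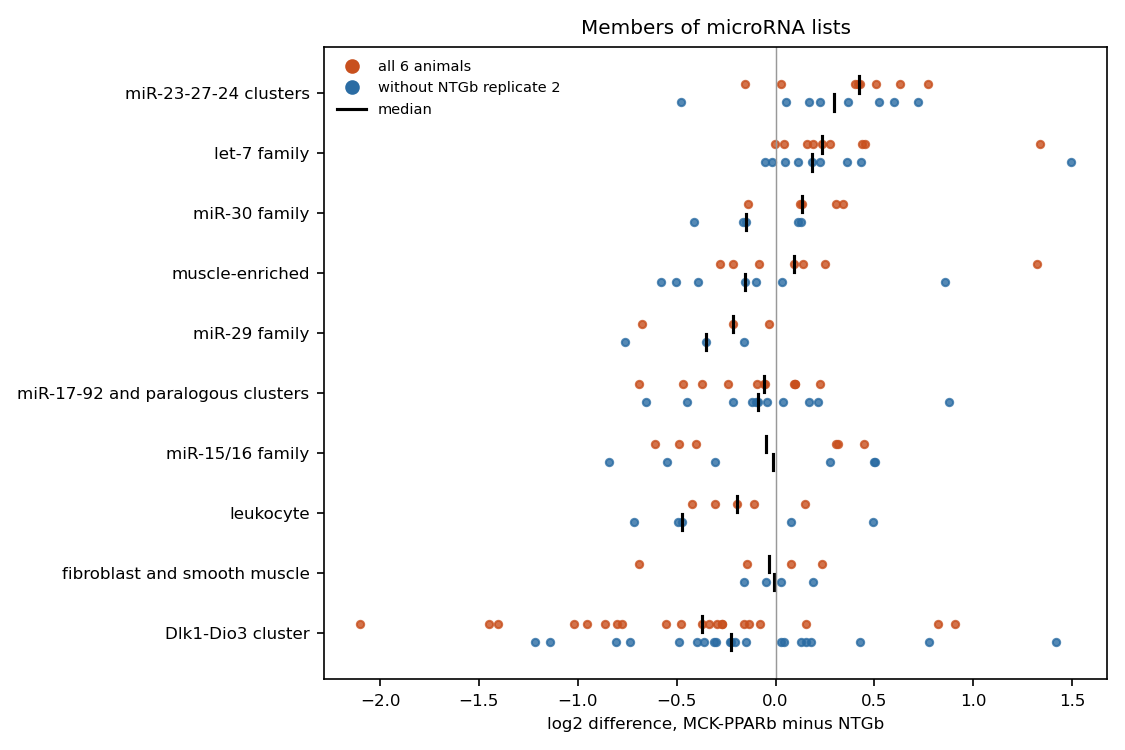
Points are the log2 differences (MCK-PPARb minus NTGb, horizontal axis) of the tested members of 10 microRNA lists, with all 6 animals (orange) and without NTGb replicate 2 (blue); black bars are medians. The Dlk1-Dio3 median moves from -0.37 to -0.23 and the muscle-enriched median from 0.09 to -0.15, while the miR-23-27-24 median stays above 0 at 0.42 and 0.29.

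Of the 7 muscle-enriched microRNAs, all tested, 4 were positive and 3 negative, with a median of 0.09, and none was called. For miR-1 and miR-133a, which act in muscle differentiation and proliferation, the log2 differences were 0.25 (95% interval -0.25 to 0.74) and -0.21 (-0.85 to 0.42). For miR-206 and miR-133b, transcribed together on chromosome 1, they were 0.09 (-0.43 to 0.62) and 0.14 (-0.42 to 0.69). The interval of each excluded a 2-fold difference. A second miR-1 assay with a rat name, rno-miR-1, had a log2 difference of -0.07 (SE 0.27). Its mean Ct was 19.7 in both groups, against 21.2 in NTGb and 20.9 in MCK-PPARb for the mouse assay. Before scaling, miR-206 had a Ct of 18.4, 18.5 and 18.5 in NTGb and 18.2, 18.0 and 18.2 in MCK-PPARb, so that its groups were apart by a fraction of a cycle, 0.33 in the mean. After scaling the groups overlapped, with NTGb replicate 2 lowest. For miR-486, a muscle and red-cell microRNA, the difference was -0.28 (-0.80 to 0.24). With U6 as the reference all 7 were positive, while the median over all tested assays rose from 0.02 to 0.33; without NTGb replicate 2, 2 were positive and 5 negative.

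The myosin-gene microRNAs, which in slow muscle take part in the choice of fibre type, were examined one by one. For miR-499, inside Myh7b (chr2:155622893-155622913, plus strand), the Ct was 27.5, 27.7 and 27.8 in NTGb and 27.7, 27.6 and 27.8 in MCK-PPARb. The animals of both groups were interleaved. The log2 difference was -0.08 (95% interval -0.75 to 0.59), and its sign changed with the reference used. For miR-208b, inside the slow myosin gene Myh7 (chr14:54975710-54975731, minus strand), the Ct was 32.3, 32.3 and 31.1 in NTGb and 29.8, 30.7 and 31.1 in MCK-PPARb. NTGb replicate 3 lay level with the lowest MCK-PPARb animal. The log2 difference was 1.32 (95% interval -0.05 to 2.69, limma adjusted p = 0.532). With 1 animal left out it ran from 0.86 (without NTGb replicate 2) to 1.84 (without NTGb replicate 3). It was 2.81 with NTGa as the control and 2.07 with all 6 controls. For miR-208, inside the cardiac gene Myh6, the Ct was 36.2, 37.3 and 34.5 in NTGb and 32.2, 32.1 and none in MCK-PPARb. It was detected in 2 of 3 MCK-PPARb animals and 1 of 3 NTGb animals and so was not tested. The mature strands of miR-208 and miR-208b share a seed, and how far each assay reads the other's target was not tested.

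**Figure D4:**
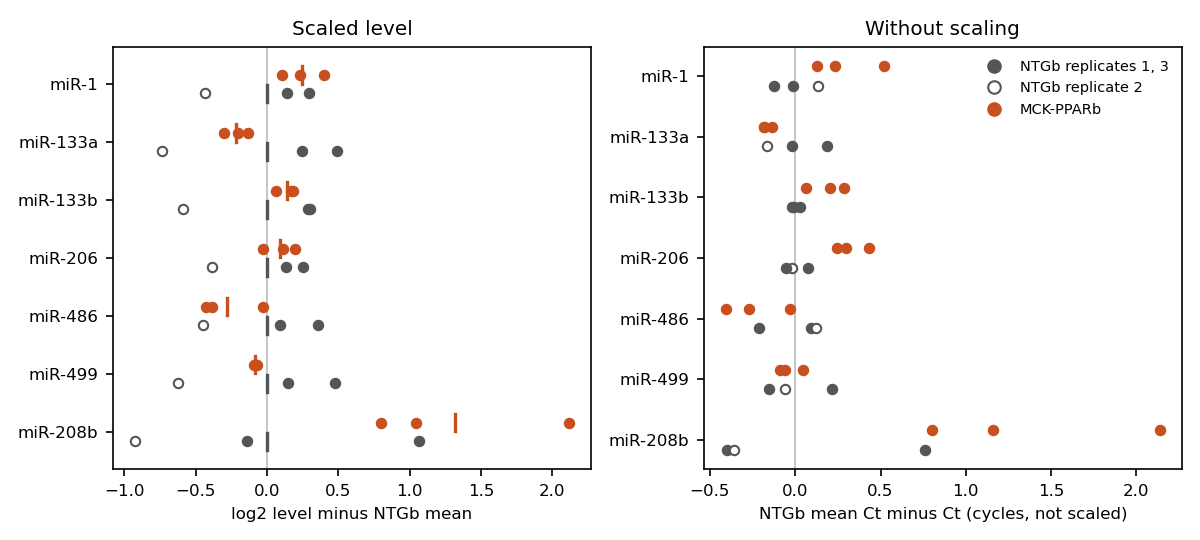
The 7 muscle-enriched microRNAs are plotted per animal as the scaled log2 level minus the NTGb mean (left) and as the NTGb mean Ct minus the Ct without scaling (right, in cycles); grey is NTGb, replicate 2 open, orange is MCK-PPARb. At the left the open circle is the lowest of the 6 animals for each of the 7 microRNAs. For miR-208b, with a difference of 1.32, NTGb replicate 3 overlaps the MCK-PPARb animals at the left.

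MicroRNAs in introns of PPAR co-regulator and lipid genes gave no call. Both strands of the hairpin in Ppargc1b, which encodes a coactivator of PPARs, were measured: miR-378 had a log2 difference of 0.14 (SE 0.19) and miR-378* 0.19 (SE 0.23). For miR-33*, from an intron of the sterol regulator Srebf2, it was -0.92 (SE 0.52, limma adjusted p = 0.559), and the groups overlapped; it was 1.18 with NTGa as the control and 0.13 with all 6 controls. The miR-30 family had 4 positive members and 1 negative with a median of 0.13, which was -0.15 without NTGb replicate 2. The miR-17-92 and paralogous clusters, which promote proliferation, had 4 positive and 7 negative of 11 tested and a median of -0.06. The miR-15/16 family was split at 3 and 3, from -0.61 for miR-16 to 0.44 for miR-322. Of miR-99b, miR-125a-5p and miR-125b-5p, 1 was positive and 2 negative, and of the miR-181 family 1 and 1. In the clustered pair on the X chromosome, miR-222 had 0.01 (SE 0.19) and miR-221 0.98 (SE 0.81).

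The 2 strands of a hairpin, or a mouse and a rat assay of the same name, were both tested for 52 names, and 31 had the same sign. Both strands were negative for miR-16 and miR-16* (-0.61 and -0.59) and for miR-29b and miR-29b* (-0.68 and -0.35). Both were positive for miR-340-3p and miR-340-5p (0.73 and 0.26). Opposite signs were seen for miR-133a* and miR-133a, and for miR-148b (-1.14) and rno-miR-148b-5p (0.24).

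The MCK-PPARb effect was then set against the MCK-PPARa effect, in the same fit, to ask where the lines differed. Of 268 assays 3 (1.12%) passed limma's adjusted threshold for the difference between the effects. They were miR-499, with -0.08 in the MCK-PPARb line and -3.66 in the MCK-PPARa line (difference 3.58, SE 0.43, adjusted p = 0.00141), miR-190b, with -0.03 and -2.25 (difference 2.22, adjusted p = 0.0313), and miR-215 (difference -2.22, adjusted p = 0.00612). The call of miR-499 held in all 19 alternatives, while that of miR-190b was lost in 8 and that of miR-215 in 6. A fit that left the microRNA out counted as a loss. The rat-named assay rno-miR-190b had -0.12 (SE 0.58) in the MCK-PPARb line and was not among the 3 calls. It passed only without MCK-PPARb replicate 1, where the mouse assay miR-190b did not. For miR-215 the 3 MCK-PPARb, 2 of 3 NTGb and all 3 NTGa animals stood at the floor. It met the rule for testing through the MCK-PPARa animals alone, so its values in the MCK-PPARb line show no more than levels at or near the floor, and its p rests on spreads of 0. The next 2 by p, miR-509-3p (2.76) and rno-miR-339-3p (-1.89), had an adjusted p of 0.156. For miR-135a the difference between the effects was 2.77 (limma adjusted p = 0.244), and for miR-208b, at 1.32 and -1.31, it was 2.63 (limma adjusted p = 0.236).

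**Figure D5:**
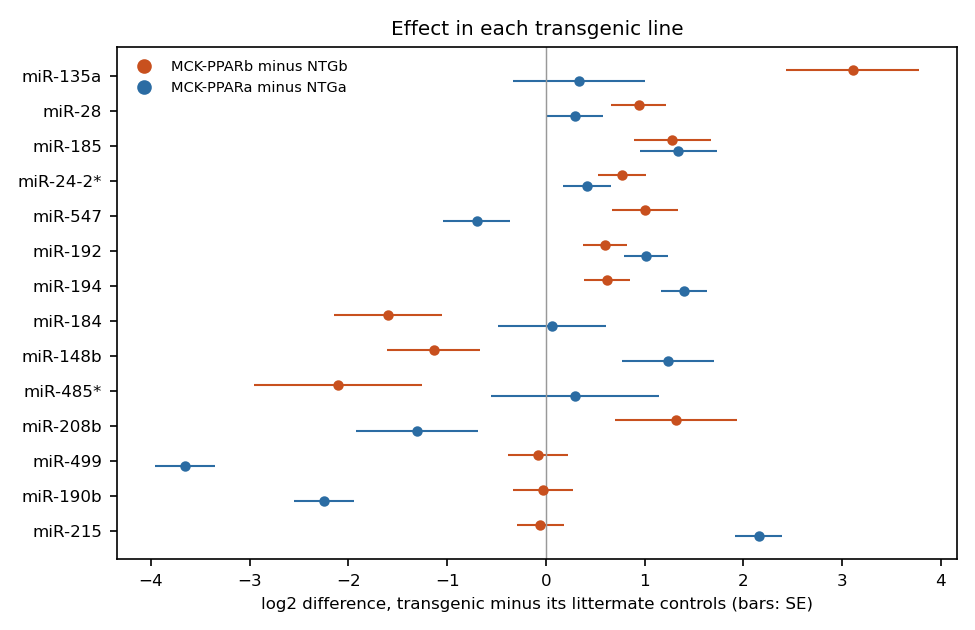
The log2 difference between transgenic animals and their own littermate controls (horizontal axis; bars are SE) is plotted for 14 microRNAs in the MCK-PPARb line (orange) and the MCK-PPARa line (blue). For miR-499, miR-190b and miR-215 the orange points lie at -0.08, -0.03 and -0.06 and the blue points at -3.66, -2.25 and 2.16, with the MCK-PPARb animals of miR-215 all at the floor; miR-185 lies at 1.28 and 1.34.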

How the data were processed

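Soleus RNA from 12 mice was run on TaqMan cards A and B (384 wells each, 40 cycles), per the labels' protocols. The authors deposited Ct values, 1 per well, which are other than counts and not normalized, per the file headers; the Ct software was not given in the sources used here. Repeat wells were averaged, an empty well beside a called one taken as Ct 40. Levels were scaled to the average Ct of those microRNAs that all animals had detected (149 on card A, 59 on card B) and undetected values (Ct of 35 or more) set to the floor. An assay was tested if detected in 3 of 3 animals of at least 1 group: 268 of 584 (375 on card A, 209 on card B; 517 mouse and 67 rat names). The plant control had 0 wells with a Ct, and 0 columns were left unmatched. The fit was limma 3.58.1 in R 4.3.3 (lmFit, eBayes) over 4 groups with 8 residual degrees of freedom, two-sided, with Benjamini-Hochberg adjustment over the 268; where a whole group stands at the floor its spread is 0, and p-values there may be too small. The method was tested on simulated data with a normal spread and no value set to the floor, so that test does not cover p-values at the floor.

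Named microRNAs were any called, the 15 lowest p in each direction, the members of 24 lists, both strands of a named hairpin and the 5 lowest p of the difference between lines; the 2-animal gaps in detection were chosen after their values were seen. The members and lists were chosen with earlier results of these data known. Alternatives were other references, detection limits, filters, weights, controls, a replicate block and leaving out each animal. Ct gives no read depth; precision is set by the animals and by the Ct.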

Additional observations from a re-analysis of the deposited data

Results flagged for a closer look

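The difference between the MCK-PPARb and MCK-PPARa effects passed limma's adjusted threshold for 3 microRNAs, which are listed because the same contrast gave unlike results in the 2 lines. It was 3.58 for miR-499, 2.22 for miR-190b and -2.22 for miR-215 on the log2 scale. Between MCK-PPARb and NTGb alone the differences of miR-499 and miR-190b were -0.08 and -0.03. The rat-named assay rno-miR-190b was not among the 3. The miR-215 value rests on levels at the floor in all but 1 of the MCK-PPARb, NTGb and NTGa animals.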

How the results depend on the processing

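Most values kept their side of the threshold under the alternatives. The count of called microRNAs was 0 in all but 3 of them: 1 with animal weights (miR-135a, 3.67, limma adjusted p = 0.00686), 1 without NTGb replicate 2 (miR-135a, 3.93) and 1 without MCK-PPARb replicate 3 (miR-208, which enters the test only when that animal, the one without a Ct for it, is left out, so its p is no evidence), so leaving out 1 animal gave 0 to 1. Over its alternatives the adjusted p of miR-135a ran from 0.00686 to 0.705. Calls in the difference between the lines were 3, against 7 with U6 as the reference, 1 with the median reference, 1 with the replicate block and 2 to 6 with 1 animal left out (6 without NTGb replicate 2). Of the 3 calls, miR-499 was kept in all 19 alternatives. The call of miR-190b was lost in 8: the endogenous controls, the median reference, no scaling, no detection limit, the replicate block, and without NTGb replicate 3 or MCK-PPARb replicate 1 or 2. That of miR-215 was lost in 6: the median reference, a limit of Ct 32, no detection limit, undetected values missing, only microRNAs detected in all 12 animals, and the replicate block. A microRNA left out of a fit also counted as lost. The filter for all 12 animals removes miR-215, so that loss was fixed in advance. With undetected values missing, the animals in which it was undetected drop out of its comparison as well. With U6 the 23 unadjusted p under 0.05 became 42 higher and 1 lower, with the median reference 8 higher and 21 lower, and without scaling 17 higher and 3 lower.

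The labels do not say whether replicate numbers pair the animals. Correlations of the deviations from the group mean were 0.18, -0.02 and 0.22 for same-numbered MCK-PPARb and NTGb animals. Those of differently numbered animals ran from -0.32 to 0.15. So few correlations cannot settle whether the animals were paired. With the replicate block 0 microRNAs were called, and 17 higher and 9 lower had an unadjusted p under 0.05.

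The difference in detected microRNAs was 8.67, but -0.333 at a detection limit of Ct 32, and -1.5 to 22.5 with 1 animal left out. The difference in the Ct of the endogenous controls was -0.11, but 0.212 for U6 alone, and -0.36 to 0.119 with 1 animal left out.

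Among 40 microRNAs (the 30 lowest p, the muscle and myosin ones and the 5 lowest p between lines), signs reversed as follows. With NTGa as the control: miR-135a -0.62, miR-192 -0.0782, miR-539 -0.43, miR-184 0.76, rno-miR-339-3p 0.99, miR-148b 0.34, miR-335-5p 0.0092, miR-134 1.05, miR-503* 0.0197, miR-709 0.20, miR-499 0.61, miR-1 -0.0316, miR-190b 0.0844 and miR-509-3p -2.19. With all 6 controls: rno-miR-339-3p 0.0411, miR-499 0.26, miR-190b 0.0269 and miR-509-3p -0.84. With U6: miR-709 0.0013, miR-499 0.23, miR-133a 0.10, miR-486 0.0311 and miR-190b 0.36. With the endogenous controls miR-499 was 0.0187, with quantile normalization miR-709 was 0.0072 and miR-499 0.0047, and with the median reference miR-133b was -0.0480 and miR-190b 0.0377. Without scaling miR-190b was 0.20, and with animal weights miR-133b was -0.0729 and miR-206 -0.0498. With no detection limit miR-206 was -0.0422, miR-215 1.25 and miR-509-3p -0.24. Leaving out 1 animal reversed miR-499 (-0.39 to 0.16), miR-133a (-0.58 to 0.0141), miR-133b (-0.15 to 0.28), miR-206 (-0.10 to 0.19), miR-190b (-0.20 to 0.14) and miR-509-3p (-0.0964 to 0.81). Among the other list members and second assays the sign turned for 60 with NTGa as the control, 29 with all 6 controls, 46 with U6 and 73 with some animal left out; against NTGa these include miR-33* (1.18), miR-24-1* (1.05), let-7e (-0.0516), let-7g (-0.14) and let-7i (-0.0166). The cause was not tested.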
